A study of Homo sapiens with 39 samples.

Results

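Aminoacyl-tRNA synthetase genes were followed in a whole-genome CRISPR knockout screen of A375, a human melanoma cell line that carries an activating BRAF mutation. Members were chosen by symbol: 34 genes, EPRS and those named as a letter followed by ARS, ARS1 or ARS2, and 3 synthetase genes with names of that style, FARSA, FARSB and TARSL2. This gave 37 of the 19113 genes in the guide table, with 148 of its 77441 guides. Names ending in ARS2 were taken as mitochondrial (16 genes, 64 guides) and the rest as cytosolic or serving both compartments (21 genes, 84 guides), where GARS and KARS are the dual enzymes. CARS2 was not analysed here.

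Every library came from A375 cells in which MED12, a subunit of the Mediator coactivator complex, had already been knocked out, so the controls carry that knockout as well. Guide RNAs integrated in genomic DNA were amplified by PCR and sequenced at day 0, and after 8 and 14 days in DMSO (the solvent control) or in 2 µM vemurafenib, an inhibitor of mutant BRAF, with 3 libraries in each of the 5 groups. The labels do not say whether the MED12 knockout line is 1 clone, how the nuclease was delivered, or whether replicates were infected separately, so p-values measure the spread between these samples, which may be partly technical. An epigenetic library screened in MED12 and MED23 knockout cells held 0 synthetase genes.

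Aminoacyl-tRNA synthetases join each amino acid to its matching tRNA, the step that sets which amino acid a codon is read as. Human cells hold one set of these enzymes for the ribosomes of the cytosol and another, encoded in the nucleus and imported, for the ribosomes of mitochondria, which make core subunits of the respiratory chain. Several cytosolic enzymes sit together in the multisynthetase complex, held by the scaffold proteins AIMP1, AIMP2 and EEF1E1. In a dropout screen, guides against a gene that cells need for growth become rarer with time.

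Libraries held between 47766947 and 87591804 reads. Replicates moved apart during culture: the median SD of a gene score (defined below) over 3 libraries was 0.19 at day 0, 0.62 and 0.61 at day 8 in DMSO and vemurafenib, and 1.02 and 1.12 at day 14, and for synthetase genes these medians were 0.26, 0.77, 0.81, 1.10 and 1.15. Guides against MED12, the gene these cells already lack, had a median log2 fold change of 0.66 from day 0 to day 14 in DMSO (edgeR/RRA adjusted p = 1). On that scale the median over all genes was 0.30. Reads are not independent molecules, since no molecular identifiers are mentioned, and intervals from counting alone would be too narrow.

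A gene score is the mean over a gene's guides of log2 CPM (counts relative to library size), scaled between libraries by TMM, with 0.5 reads added, and values below are gene scores or differences of gene scores on that log2 scale. A guide at 0 reads is scored at the added 0.5 reads, so the fall of such a guide is understated. The score of such a guide also depends on the size and TMM factor of its library. Calls come from 2 tests over the same 19101 genes, both adjusted by Benjamini-Hochberg with a threshold of 0.05. In the guide-rank test (written edgeR/RRA) each guide is tested with edgeR's quasi-likelihood test. The guide ranks of a gene are then combined by robust rank aggregation, which favours genes with several guides that moved. A single extreme guide can also give its gene a small unadjusted p. In the gene-score test limma is applied to the gene scores, with 1 estimate of the spread over all 5 groups, so the order of its p-values can differ from that of the changes divided by their SE. All 37 members were tested, with 147 of their 148 guides; the guide left out, WARS_4, had 2, 12 and 0 reads at day 0.

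By day 14 in DMSO, guides against synthetases were widely depleted. Gene scores were below day 0 for 36 of 37 members and below the median change of all genes (-0.65) for 35 of them. Over all genes tested, 14373 of 19101 were below day 0. The median change was -3.26 for the cytosolic and -3.06 for the mitochondrial enzymes. In 30 of 37 members the 3 day-14 libraries all lay below the 3 day-0 libraries, against 30.1% of all genes tested. The gene-score test called 23 members depleted (15 cytosolic or dual and 8 mitochondrial), where it called 9.95% of all genes. With the replicate number as a block it called these 23 and 9 more (AARS2, CARS, FARS2, FARSB, HARS, IARS2, NARS2, WARS and WARS2), 32 in all, where it called 27.3% of all genes. Of 374 olfactory receptor genes it called 17 without the block and 77 with it. The block takes a replicate number to deviate alike at day 0 and later, but the median SD was 0.19 at day 0 and 1.02 at day 14 in DMSO. Block p-values for changes from day 0 can therefore be too small, here and below. The edgeR/RRA test called 0 members, where it called 0.12% of all genes; at an unadjusted p under 0.05 it placed 15 members on the depleted side, against 4.56% of all genes, and DESeq2 in place of edgeR also gave 0 members. No member was called enriched by either test in any comparison; at day 14 in DMSO edgeR/RRA called 0.0314% and the gene-score test 0.183% of all genes enriched, and these shares were 0.0366% and 0.628% at day 14 in vemurafenib, 0.0262% and 0.0262% at day 8 in DMSO, 0.0419% and 0.0105% at day 8 in vemurafenib, and 0.0157% and 0% in DMSO and 0.0105% and 0% in vemurafenib between the days.

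**Figure D1:**
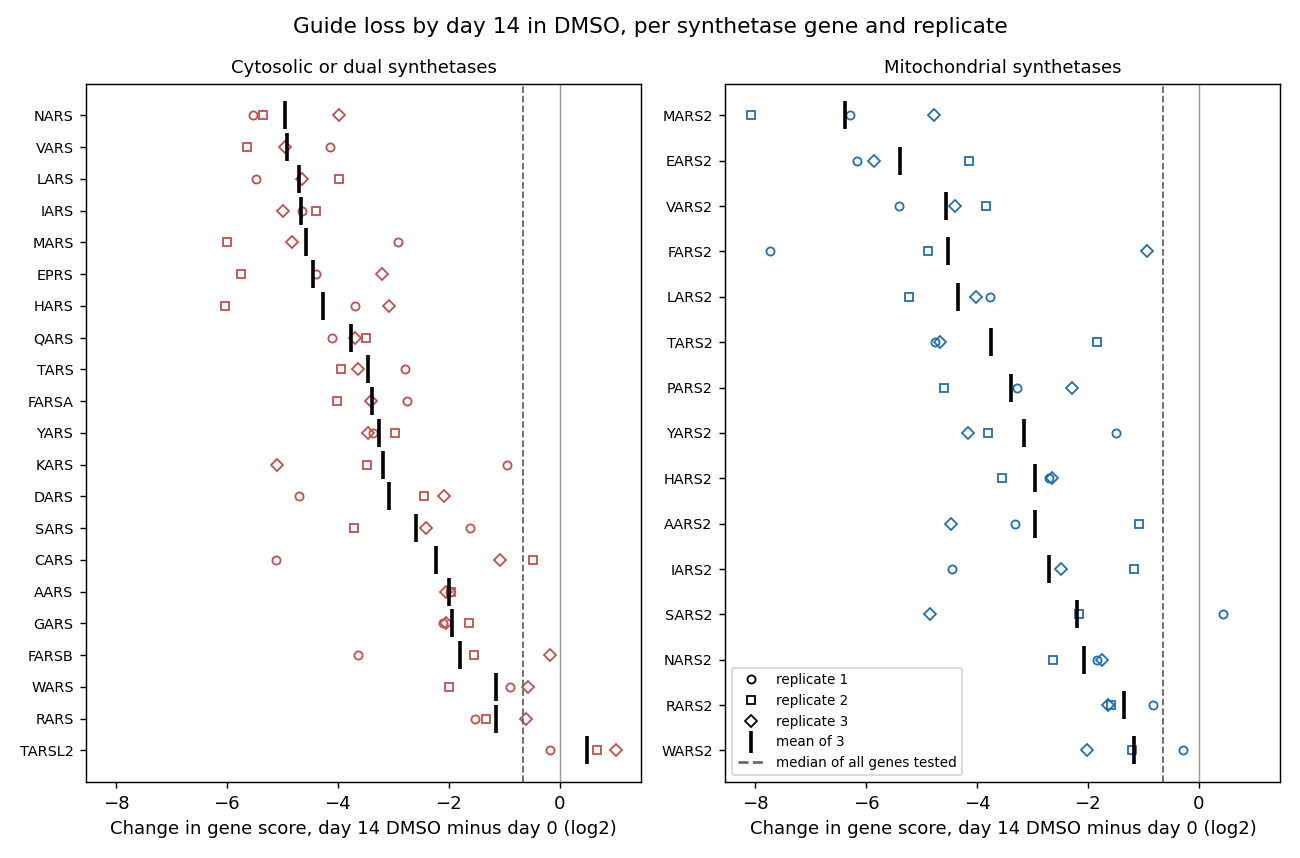
Change in gene score from day 0 to day 14 in DMSO (x axis, log2) for 36 of 37 synthetase genes (y axis), with 1 symbol per replicate, a bar at the mean of 3 and a dashed line at the median of all genes tested (-0.65). TARSL2 is the only member whose mean lies above 0 (0.50; -0.10 under scaling to guides without a target), and MARS2 has the lowest mean (-6.37).

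Among mitochondrial enzymes, MARS2, which charges methionine for both initiation and elongation in mitochondria, had the lowest score change of all members. Its gene score was 2.57, 2.70 and 2.39 at day 0 in replicates 1, 2 and 3, -0.80, -0.75 and -1.56 at day 8 in DMSO, and -3.71, -5.38 and -2.38 at day 14. The groups did not overlap at either day. The change was -3.58 ± 0.28 (SE from the spread within the compared groups, n = 3 libraries each) at day 8 and -6.37 ± 0.87 at day 14, rank 15 of 19101 genes. MARS2 was the only member past the edgeR/RRA threshold at day 8 in DMSO (adjusted p = 0.0216), where that test called 0.236% of all genes depleted, and it missed the threshold at day 14 (edgeR/RRA adjusted p = 0.0883; 0.0309 with the replicate number as a block, which called 0.0838% of all genes). In the gene-score test it passed at both days (limma adjusted p = 0.0169 and 1.24e-04). The day-8 edgeR/RRA call was lost when day-8 DMSO replicate 1 or 3 was left out (adjusted p = 0.101 and 0.0639).

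Reads of the 4 MARS2 guides show the course. MARS2_3 went from 441, 334 and 337 reads at day 0 to 11, 16 and 1 at day 8 and to 0 in each of the 3 libraries at day 14 in DMSO. MARS2_2 went from 569, 487 and 415 reads to 56, 35 and 13 and then to 6, 0 and 0. MARS2_4 was less even, going from 1038, 1096 and 1190 reads to 522, 102 and 561 and then to 174, 0 and 388. Each of the 4 guides was lower than at day 0 in all 3 day-14 libraries of both arms.

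EARS2, which charges glutamate in mitochondria, followed, with gene scores of 2.61, 2.56 and 2.55 at day 0, 0.40, 0.60 and 0.59 at day 8 and -3.56, -1.58 and -3.31 at day 14. Its change of -5.39 ± 0.62 had the lowest p of all members in the gene-score test (limma adjusted p = 9.19e-05; edgeR/RRA adjusted p = 0.387). The groups were separate at both days, with a change of -2.05 up to day 8 and -3.34 after it. One of its guides kept 3479 reads at day 14 in replicate 3 alone (EARS2_1; 1767 at day 0), while the same guide had 24 and 28 reads in the others.

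VARS2 (valine) changed by -4.55 ± 0.69 and LARS2 (leucine) by -4.34 ± 0.59 by day 14, both past the gene-score test (limma adjusted p = 0.0022 and 0.00161). TARS2 (threonine, -3.75 ± 0.98), PARS2 (proline, -3.39 ± 0.70), YARS2 (tyrosine, -3.15 ± 0.82) and HARS2 (histidine, -2.96 ± 0.21) passed it too. HARS2 combined a moderate fall with close replicates, at 2.68, 3.07 and 2.52 at day 0 and -0.02, -0.46 and -0.13 at day 14. FARS2, the mitochondrial phenylalanine enzyme, had a change of similar size (-4.52 ± 2.11) and did not pass (limma adjusted p = 0.0936; 0.0026 with the block). Its day-14 scores were -6.16, -3.21 and 1.08, so the replicate lines disagreed by more than the mean change.

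Among cytosolic enzymes, NARS, which charges asparagine, had the lowest score change at day 14 (-4.95 ± 0.66, limma adjusted p = 0.0343), from 0.50, 0.79 and 1.04 at day 0 to -5.03, -4.56 and -2.93. VARS (valine) changed by -4.91 ± 0.41, LARS (leucine) by -4.69 ± 0.35, IARS (isoleucine) by -4.67 ± 0.17, MARS (methionine) by -4.58 ± 1.06 and EPRS, which charges both glutamate and proline, by -4.44 ± 0.79. These members passed the gene-score test, with limma adjusted p between 8.26e-04 (LARS) and 0.0369 (MARS). QARS (glutamine) had the lowest limma adjusted p of the cytosolic set (2.48e-04) with a change of -3.76 ± 0.41. HARS (histidine), at -4.27 ± 1.08, did not pass (limma adjusted p = 0.0992; 0.00196 with the block), with day-14 scores of -2.52, -5.64 and -2.42.

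IARS and QARS were close to their day-14 level at day 8. IARS scores were 0.08, 0.13 and 0.14 at day 0, -3.81, -3.53 and -5.66 at day 8 and -4.57, -4.26 and -4.84 at day 14 in DMSO. QARS was at 0.56, 0.64 and -0.21, then -3.59, -3.07 and -4.11, then -3.54, -2.85 and -3.91. In both genes all libraries of both later days lay below day 0, and the day-14 libraries overlapped those of day 8. Several of these guides had no room to go lower: at day 8 in DMSO IARS_3 and QARS_3 had 0 reads in all 3 libraries, QARS_4 had 0, 1 and 0, and IARS_2 had 1, 126 and 0, so the scores cannot show whether cells with these guides were lost further.

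The 8 cytosolic enzymes of the multisynthetase complex (DARS, EPRS, IARS, KARS, LARS, MARS, QARS and RARS) had a median change of -4.10 at day 14, against -2.58 for the 13 cytosolic enzymes outside it, and 7 of 8 and 8 of 13 passed the gene-score test (9.95% of all genes). With the replicate number as a block 7 of 8 and 12 of 13 passed (27.3% of all genes), so the order of the shares rests on the model. At day 8 the medians were -3.53 and -1.60. By the structural fold of the enzymes, the 9 cytosolic class I members had a median of -3.15 at day 8 and -3.76 at day 14, and the 11 class II members -1.31 and -3.07, with the bifunctional EPRS in neither. These groupings overlap in membership, and no difference between them was tested. RARS, the arginine enzyme, was the member of the complex that did not pass, at -1.15 ± 0.58 by day 14 (limma adjusted p = 0.425).

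Of the 2 subunits of cytosolic phenylalanyl-tRNA synthetase, FARSA, the catalytic subunit, passed the gene-score test (-3.39 ± 0.28, limma adjusted p = 0.00178) and FARSB, its partner, did not (-1.79 ± 1.17, adjusted p = 0.339); with the replicate block both passed (adjusted p = 1.49e-04 and 0.0259). FARSB ended at -2.49 and -0.19 in replicates 1 and 2, and in replicate 3 within the day-0 values of 1.14, 1.36 and 1.68, so its groups overlapped. The difference between the subunits was not tested. Of the dual enzymes, KARS (lysine) changed by -3.18 ± 1.19 and GARS (glycine) by -1.93 ± 0.22, and both passed (limma adjusted p = 0.0436 and 0.034). Their guides were divided: the fit to single guides put 2 of 4 KARS guides and 1 of 4 GARS guides below day 0. The median log2 fold change of the guides was 0.25 for KARS and 1.37 for GARS (edgeR/RRA adjusted p = 0.591 and 0.969). Both are opposite in sign to the gene scores, but so are the medians of all genes (0.30 in the guide fit and -0.65 in gene scores).

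Some members did not pass the gene-score test at day 14 in DMSO. TARSL2, a threonyl-tRNA synthetase paralogue, was the member with the highest change, at 2.53, 3.01 and 2.34 at day 0 and 2.34, 3.68 and 3.36 at day 14 (0.50 ± 0.45, limma adjusted p = 0.539). Its direction rests on the scaling: the change was -0.10 when libraries were scaled to the guides without a target and -0.64 when scaled by library totals. WARS (tryptophan, -1.15 ± 0.63), WARS2 (-1.17 ± 0.52) and RARS2 (-1.35 ± 0.42) did not pass either, and with the replicate block WARS and WARS2 did (limma adjusted p = 0.0478 and 0.0342). SARS2 (serine) had a larger mean change and a wide spread (-2.19 ± 1.64, with 0.43, -2.16 and -4.85 by replicate; limma adjusted p = 0.4, and 0.0531 with the block). TARS, the cytosolic threonine enzyme, changed by -3.45 ± 0.35 (limma adjusted p = 0.00331).

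At day 8 in DMSO, 36 of 37 members were below day 0, with a median change of -2.30 for cytosolic and -1.75 for mitochondrial enzymes and -0.21 for all genes. Over all genes tested, 12660 of 19101 were below day 0 at day 8. Libraries did not overlap, on the lower side, in 27 members, against 18.4% of all genes. The gene-score test called 7 members (EPRS, FARSA, IARS, LARS, MARS2, QARS and YARS), where it called 1.13% of all genes, and 18 members with the replicate number as a block, where it called 4.68%. This count rests on few libraries: it was 4 without day-8 DMSO replicate 1, 4 without replicate 2 and 3 without replicate 3, and 1, 1 and 2 without day-0 replicates 1, 2 and 3. The edgeR/RRA test called MARS2 alone, and with the block MARS2, MARS and HARS (adjusted p = 0.0197, 0.0318 and 0.0457), where it then called 0.513% of all genes.

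After day 8 the medians of the compartments changed by different amounts, on a scale with a floor that the cytosolic guides had reached more often. At day 8 in DMSO 15.5% to 22.6% of cytosolic guides per library had 0 reads, against 3.12% to 4.69% of mitochondrial ones. This limits how far the cytosolic scores could still go down. The floor itself was higher at day 14, with TMM factors of 1.22 to 1.34 at day 8 and 0.73 to 0.80 at day 14 in DMSO. In vemurafenib they were 1.16 to 1.25 and 0.47 to 0.54. There the MARS score of replicate 2 rose from -6.44 to -6.16, while its guides went from 0, 7, 0 and 0 reads to 0 in each. The part of the floor in the difference was not tested. From day 8 to day 14 in DMSO the cytosolic median changed by -0.74 and the mitochondrial median by -1.38, with -0.39 for all genes. A further change below -1 was seen in 38.1% of cytosolic members, 62.5% of mitochondrial members and 18.1% of all genes. In vemurafenib the medians were -0.41 and -1.76, with -0.54 for all genes, and the shares 28.6%, 81.2% and 26.9%. Ribosomal protein genes, compared as the machines these enzymes serve, were taken by symbol. The cytosolic rule was RPL or RPS followed by a digit or by P and a digit, or RPSA. That rule also matches symbols of the RPS6K kinases, so its list of 100 can hold genes outside the ribosome. After day 8 in DMSO the median was -0.61 for this list and -1.15 for 78 genes named MRPL or MRPS with a digit. In vemurafenib the medians were -0.68 and -1.22, so the mitochondrial list had the larger late change in both arms.

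**Figure D2:**
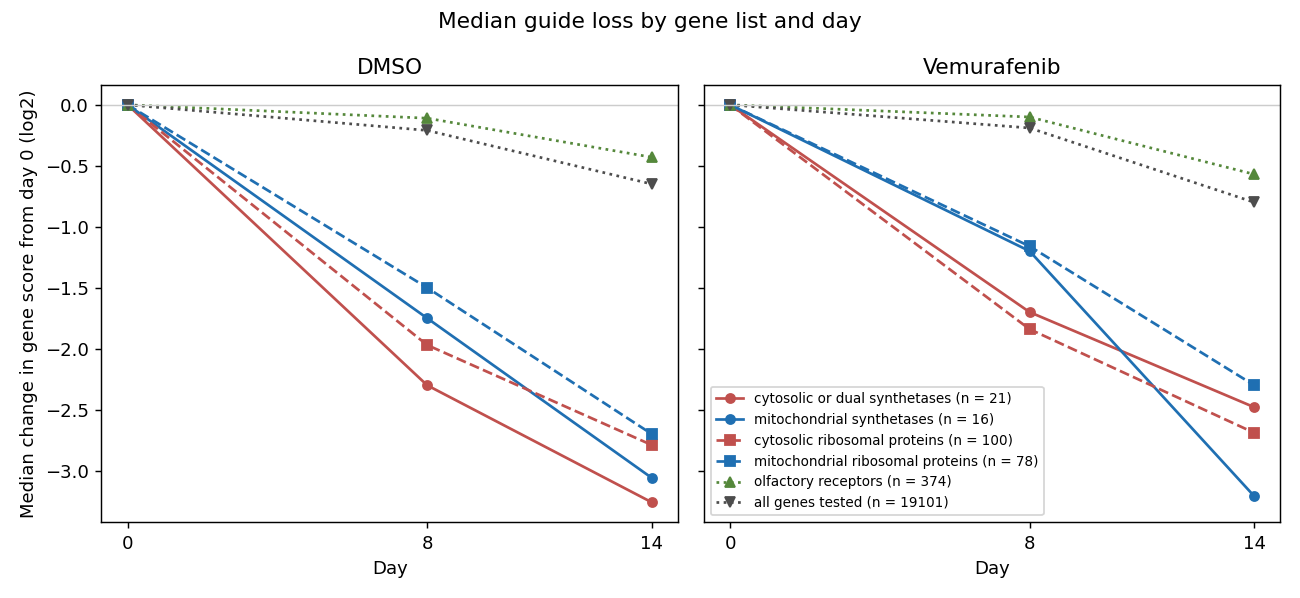
Median change in gene score from day 0 (y axis, log2) by day (x axis) in DMSO and in vemurafenib. Lines are the synthetase classes, the ribosomal protein lists taken by symbol, 374 olfactory receptor genes and all genes tested. The mitochondrial synthetase median goes from -1.20 at day 8 to -3.21 at day 14 in vemurafenib, and the cytosolic one from -1.70 to -2.48.

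By the edgeR/RRA test 0 members were called between day 8 and day 14 in either arm, with 0.0262% of all genes called depleted in DMSO and 0% in vemurafenib, and 10 and 4 members at an unadjusted p under 0.05 on the depleted side (3.76% and 3.17% of all genes). DESeq2 gave 0 members in both arms. The gene-score test called 0 members in either arm (0.00524% of all genes called depleted in DMSO and 0% in vemurafenib), with 10 and 9 at an unadjusted p under 0.05 (5.99% and 10.9% of all genes). With the replicate number as a block it called 2 in DMSO, EARS2 and LARS2 (limma adjusted p = 0.0181 and 0.0215), where it called 0.613% of all genes. In vemurafenib it then called 8, AARS2, EARS2, FARSB, HARS2, LARS2, MARS2, PARS2 and VARS2, where it called 4.87% of all genes; 7 of these are mitochondrial. EARS2 changed by -3.34 ± 0.63 in this interval in DMSO (-3.95, -2.18 and -3.90 by replicate) and by -2.60 ± 0.41 in vemurafenib (-2.40, -2.81 and -2.60). Libraries of day 14 lay below those of day 8 in 10 members in each arm, against 7.62% of all genes in DMSO and 11.7% in vemurafenib.

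**Figure D3:**
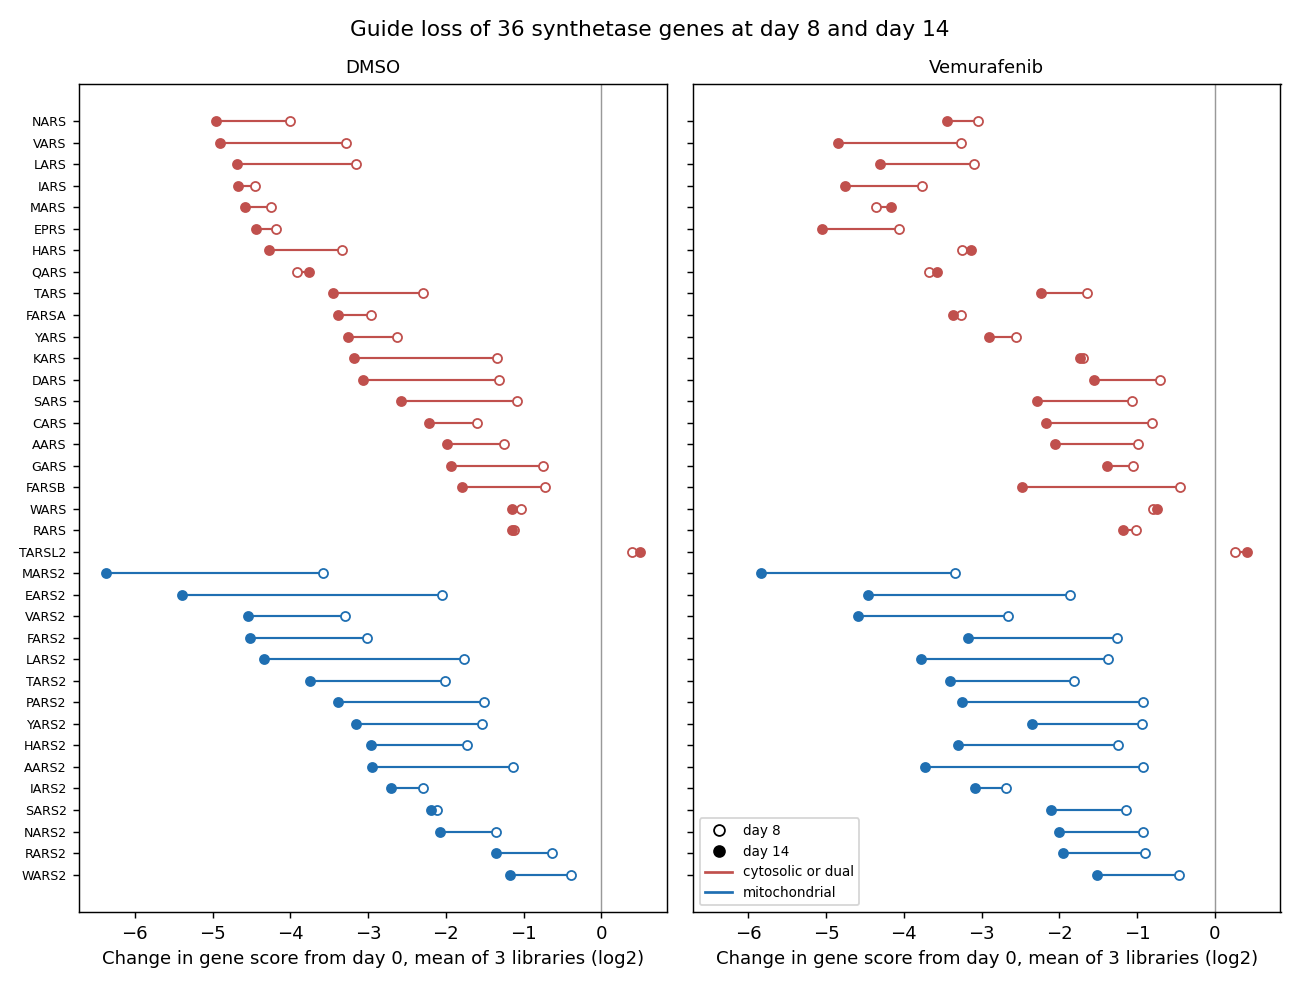
Change in gene score from day 0 at day 8 (open) and day 14 (filled) for 36 of 37 synthetase genes (y axis), as means of 3 libraries on a log2 x axis, in DMSO and in vemurafenib. QARS and IARS reach their day-14 value at day 8 or close to it, while EARS2 goes from -2.05 to -5.39 in DMSO. Both days are set against the same day-0 libraries.

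Synthetase guides were also depleted in vemurafenib. To day 8 in the drug the medians were -1.70 (cytosolic) and -1.20 (mitochondrial), with -0.19 for all genes, and to day 14 they were -2.48 and -3.21, with -0.80 for all genes. The edgeR/RRA test called MARS2 at day 8 (-3.34 ± 0.19, adjusted p = 0.0249; 0.152% of all genes called depleted), a call lost with the replicate block (adjusted p = 0.0522) and without day-0 replicate 2 (0.0618) or day-8 vemurafenib replicate 1 (0.114), 2 (0.0686) or 3 (0.0815). At day 14 it called 0 members (0.0157% of all genes), with 4 at an unadjusted p under 0.05 on the depleted side (3.72% of all genes), and DESeq2 also gave 0. The DMSO and vemurafenib changes share their day-0 libraries and are given side by side.

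The gene-score test called FARSA, IARS, MARS2 and QARS at day 8 of vemurafenib (0.482% of all genes called) and 10 members with the replicate block (2.84%). Without day-0 replicate 1, 2 or 3 that count of 4 became 1, and it was 2 without day-8 vemurafenib replicate 2 and 1 without replicate 3. At day 14 it called 19 members, 11 cytosolic or dual and 8 mitochondrial (13.6% of all genes), and 32 with the block (34.2%). Of 374 olfactory receptor genes it called 31 at day 14, and 103 with the block. The libraries of the drug arm lay below day 0 in 27 members at day 8 (17.6% of all genes) and in 33 at day 14 (33.6%). MARS2 was again the lowest member at day 14 (-5.84 ± 0.52, rank 9 of 19101, limma adjusted p = 2.49e-04), at -3.85, -3.77 and -2.26. EPRS was the lowest cytosolic one (-5.05 ± 0.18, limma adjusted p = 0.00312), at -4.05, -4.22 and -4.62 from 0.83, 0.62 and 0.81 at day 0. TARSL2 (0.41 ± 0.39) was the highest member with TMM scaling.

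Cytosolic synthetase guides were already scarce at day 0. Their median gene score was 1.62 ± 0.18 (SD of the 3 library medians), against 2.59 ± 0.07 for mitochondrial ones and 2.53 ± 0.02 for all genes. Of the 21 cytosolic members, 11 lay in the lowest 10% of all genes at day 0, and 0 of the 16 mitochondrial members did. MARS ranked 92, IARS 106 and QARS 161 from the bottom of 19101 genes, with scores of 0.06 ± 0.35, 0.12 ± 0.03 and 0.33 ± 0.47 (SD, n = 3). The cytosolic ribosomal protein list, taken by symbol, stood likewise, with a median of 1.08 and 66 of 100 in the lowest 10%. The mitochondrial list stood at 2.40 with 2 of 78. The plasmid library was not analysed here, so guide loss before day 0 and uneven guide supply cannot be told apart, and changes from day 0 measure what happened after it.

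Guides at 0 reads were also more common among the cytosolic members. In DMSO, 13 to 19 of the 84 cytosolic guides had 0 reads at day 8 and 24 to 31 at day 14, and for the 64 mitochondrial guides these were 2 to 3 and 12 to 15. At most 1 cytosolic guide per library was at 0 at day 0. Over all targeting guides 2.28% to 2.66% had 0 reads at day 8 and 7.49% to 8.80% at day 14 in DMSO. A count of 0 allows up to 3 reads, or 0.0345 to 0.0532 CPM in the DMSO libraries, for counting error alone. In every library after day 0 MARS_1, IARS_3 and QARS_3 were at 0, from 46, 25 and 41 reads (MARS_1), 23, 58 and 80 (IARS_3) and 69, 51 and 19 (QARS_3) at day 0.

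Guides of 1 gene did not always move together. At day 14 in DMSO 72.6% of cytosolic and 75.0% of mitochondrial synthetase guides were below day 0 in all 3 libraries, against 51.4% of all targeting guides and 36.0% of guides without a target. All 4 guides did so for 8 cytosolic genes (DARS, EPRS, IARS, LARS, MARS, NARS, TARS and YARS) and 5 mitochondrial ones (HARS2, MARS2, RARS2, TARS2 and YARS2). For TARSL2 0 guides did, and for GARS 1 guide did. A fall of more than 16-fold in all 3 day-14 DMSO libraries was seen for 31.0% of cytosolic, 15.6% of mitochondrial and 3.52% of all targeting guides. In vemurafenib these shares were 28.6%, 28.1% and 5.64%.

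**Figure D4:**
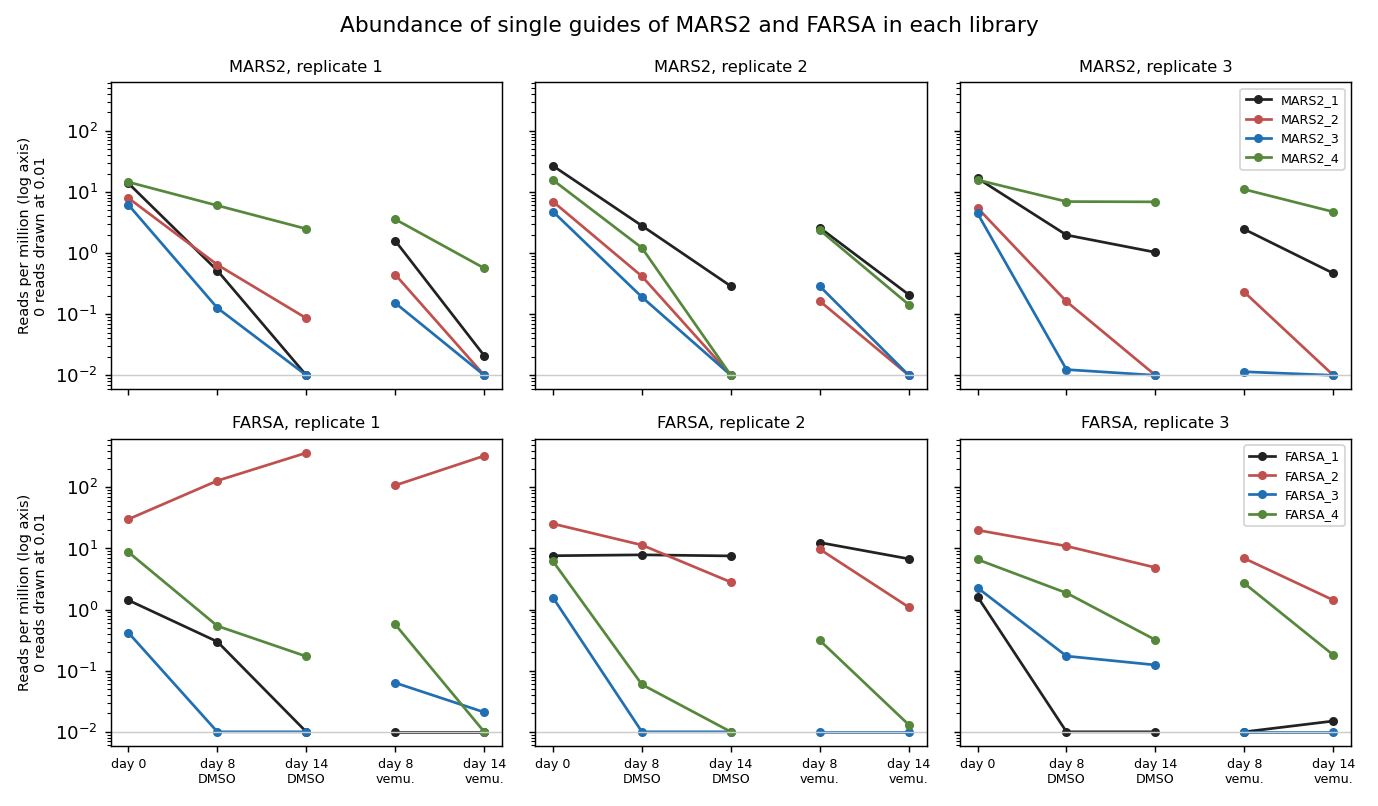
CPM (y axis, reads relative to library size, log scale, 0 reads drawn at 0.01) of the 4 guides of MARS2 and of FARSA in each library, by replicate, with DMSO on the left of each panel and vemurafenib on the right. The 4 MARS2 guides go down in each replicate, while FARSA_2 goes up in replicate 1 (from 2156 to 25668 reads in DMSO) and down in replicates 2 and 3.

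A few guides instead went up, most of them in 1 replicate. FARSA_2 had 2156 reads at day 0 in replicate 1, 11172 at day 8 and 25668 at day 14 in DMSO, and 8511 and 15659 in vemurafenib. In replicates 2 and 3 the same guide went from 1779 and 1513 reads to 206 and 275 at day 14 in DMSO. The FARSA score was nevertheless lower in all 3 replicates at day 14, where its other guides had 0, 0 and 12 reads in replicate 1 in DMSO. Single guides were picked for description after their values were seen.

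GARS, the glycine enzyme, showed the same with different guides: GARS_2 went from 1010 to 5591 reads in replicate 1, and from 234 to 1 in replicate 2. GARS_3 went from 1140 to 7860 reads in replicate 2, and from 730 to 80 in replicate 1. Each of these guides was raised in the DMSO and the vemurafenib library of the same replicate number. Guides raised more than 4-fold in some day-14 DMSO library were 4 of the 84 cytosolic and 2 of the 64 mitochondrial ones, against 9.05% of all targeting guides. In day-14 vemurafenib they were 7.14% of cytosolic and 1.56% of mitochondrial guides, against 10.3% of all. HARS_3 was raised more than 4-fold, on the scaled values, in 2 of those libraries, from 256 to 723 reads in replicate 1 and from 482 to 2401 in replicate 3, and had 198 and then 1 in replicate 2.

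Vemurafenib against DMSO on the same day compares the loss of these guides between the arms. The labels give no count of cell divisions in either arm, so changed need and changed growth cannot be told apart. No member passed a test of this difference. At day 8 the median difference was 0.11 for cytosolic and 0.41 for mitochondrial members, with 0.03 for all genes, and at day 14 it was 0.29 and 0.11, with -0.08 for all genes. A guide at 0 reads scored higher in vemurafenib than in DMSO at day 14, where TMM factors were 0.47 to 0.54 and 0.73 to 0.80. In replicate 1 QARS scored -2.79 in vemurafenib, with guides at 9, 82, 0 and 0 reads. In DMSO it scored -3.54, with guides at 9, 192, 0 and 0. The part of this floor in the medians was not tested. The edgeR/RRA test called 0 members at either day (0.0157% of all genes called depleted and 0.0105% enriched at day 8, and 0% in both directions at day 14). At an unadjusted p under 0.05 it had 1 member lower and 3 higher at day 8 (2.78% and 2.83% of all genes) and 0 lower and 3 higher at day 14 (2.74% and 2.51%). DESeq2 and the gene-score test also called 0 members, and the latter had 0 lower and 0 higher at day 8 and 0 lower and 1 higher at day 14 at an unadjusted p under 0.05 (0.0209% and 0.168% of all genes, and 2.33% and 0.958%). Under scaling by library totals 29 of 37 members had a lower score in vemurafenib at day 14, against 12 with TMM and 13 with scaling to the guides without a target, so no common direction can be given for that day.

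DARS, the cytosolic aspartate enzyme, was the member with the largest difference of its class at day 14 and one whose groups did not overlap at either day. At day 8 its scores were -0.23, 0.43 and 0.40 in DMSO and 0.50, 0.94 and 0.97 in vemurafenib, a difference of 0.60 ± 0.26 (edgeR/RRA adjusted p = 1). At day 14 they were -3.08, -1.17 and -0.44 in DMSO and -0.32, 0.50 and -0.31 in vemurafenib, a difference of 1.52 ± 0.83 (edgeR/RRA adjusted p = 1). Members whose vemurafenib libraries lay wholly above DMSO were DARS and PARS2 at day 8 (1.04% of all genes) and DARS at day 14 (0.9% of all genes), and no member lay wholly below.

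At the other ends, FARS2 had the highest difference of all members at day 8 (1.74 ± 1.35) and of its class at day 14 (1.35 ± 2.56), with the replicate differences 2.99, 1.23 and 1.01 and then 2.93, 0.73 and 0.38. NARS was the highest cytosolic member at day 8 (0.97 ± 2.15). The lowest were IARS2 (-0.41 ± 1.08) and KARS (-0.37 ± 0.59) at day 8 and AARS2 (-0.78 ± 1.51) and FARSB (-0.70 ± 1.58) at day 14. The SE here leaves out the pairing of replicate numbers, so it can overstate the error of a difference within pairs. With the replicate number as a block the lowest limma adjusted p of a member was 1 at day 8 and 0.318 at day 14 (DARS), and edgeR/RRA adjusted p without it was 0.732 or more for every member at both days. Compared within replicate numbers at day 8, 8 of 16 mitochondrial members, among them VARS2 (0.67, 0.55 and 0.71), FARS2, MARS2, HARS2 and LARS2, were higher in vemurafenib in all 3 pairs and 1 was lower in all 3, against 16.1% and 11.3% of all genes. Of the 21 cytosolic members 4 were higher and 1 was lower. At day 14 these counts were 3 and 2 of 16 and 5 and 1 of 21, against 11.6% and 16.7% of all genes.

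**Figure D5:**
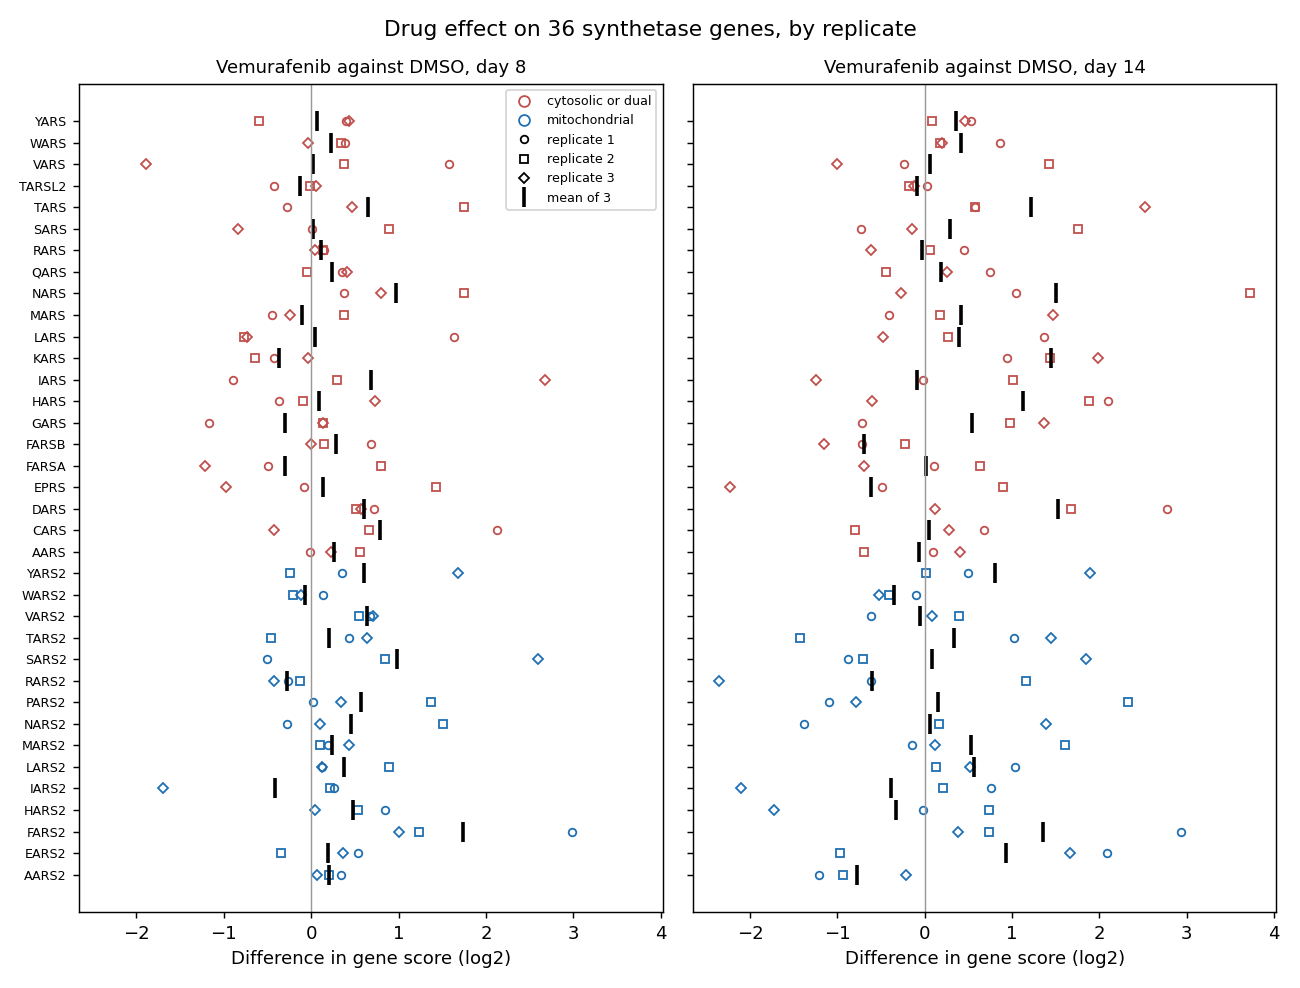
Difference in gene score between vemurafenib and DMSO (x axis, log2) at day 8 and day 14 for 36 of 37 synthetase genes (y axis), with 1 symbol per replicate number and a bar at the mean of 3. Replicates of most members lie on both sides of 0; DARS lies above 0 in each replicate at both days.

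The change of the drug effect from day 8 to day 14 was tested as an interaction. The edgeR/RRA test called 0 members and 0% of all genes in either direction, with 0 members lower and 4 higher at an unadjusted p under 0.05 (2.73% and 2.61% of all genes). DESeq2 and the gene-score test called 0 members, and the latter had 0 members in either direction at an unadjusted p under 0.05. KARS had the lowest adjusted p (edgeR/RRA adjusted p = 0.901) and the largest change (1.82).

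Other genes of tRNA charging and use were read from companion lists, for growth to day 14 in DMSO, by the gene-score test (9.95% of all genes called). In that comparison 14373 of all 19101 genes tested were below day 0, with a median change of -0.65, so a negative change alone was common. The edgeR/RRA test called 0 genes of these lists. The calls are those without the replicate block, and the counts with it, where they differ by more than 1.5 times, are set beside the share of 27.3% of all genes. The 3 complex scaffolds all had negative changes and 2 passed, AIMP1 (-2.02 ± 0.44, limma adjusted p = 0.0198) and EEF1E1 (-1.93 ± 0.40, adjusted p = 0.0437). Of the 4 genes that finish mitochondrial aminoacyl-tRNAs by amidation or formylation 4 were below day 0 and 2 passed, QRSL1 (-4.69 ± 0.74, limma adjusted p = 2.90e-04) and GATB (-3.12 ± 0.72, adjusted p = 0.0111), both subunits of the amidotransferase that turns glutamate on its tRNA, as made by EARS2, into glutamine. MTFMT, which formylates the methionine that MARS2 charges, was at -0.82 ± 1.78 (limma adjusted p = 0.806).

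Of 4 trans-editing genes 3 were below day 0 and 3 below the median of all genes. The 1 that passed was AARSD1 (-3.04 ± 0.52, limma adjusted p = 0.0176), which clears mischarged alanine tRNA. Of 4 selenocysteine genes all 4 were below day 0, with a median of -2.36, and 1 passed (3 with the block), PSTK (-2.70 ± 1.07, adjusted p = 0.0445), the kinase that acts on seryl-tRNA for selenocysteine. Upstream of charging, all 17 genes of nuclear tRNA processing and export were below day 0, with a median of -2.31, and 6 passed (12 with the block), among them RTCB, the tRNA ligase (-4.37 ± 0.70, limma adjusted p = 7.51e-04), POP5, a subunit of RNase P (-4.49 ± 0.90, adjusted p = 0.00128), and XPOT, the tRNA exporter (-2.34 ± 0.64, adjusted p = 0.00999). Of 12 genes of mitochondrial tRNA maturation 10 were below day 0 and 8 below the median of all genes. The 3 that passed were HSD17B10 (-4.76 ± 0.52, limma adjusted p = 0.00465), TRIT1 (-3.53 ± 0.40, adjusted p = 0.0108) and ELAC2 (-3.81 ± 1.22, adjusted p = 0.0417).

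Downstream, 10 of 11 mitochondrial translation factors were below day 0 and 8 below the median of all genes. Of these factors 3 passed (7 with the block), TUFM, the elongation factor that carries charged tRNA to the mitochondrial ribosome (-5.62 ± 0.35, limma adjusted p = 6.29e-06), MRPL58 (-3.12 ± 0.32, adjusted p = 0.00163) and GFM2 (-5.39 ± 1.08, adjusted p = 0.0108). Of 7 cytosolic elongation and release factors all 7 were below day 0, with a median of -1.96, and 1 passed (6 with the block), the release factor GSPT1 (-5.22 ± 1.26, adjusted p = 0.00781). Of 5 amino acid transporters 4 were below day 0 and 3 below the median of all genes. Among these transporters 1 passed (2 with the block), SLC3A2, the heavy chain of several of them (-3.47 ± 0.32, adjusted p = 3.59e-04). Of 10 genes of the response to uncharged tRNA and translational stress 9 were below day 0, but only 5 were below the median of all genes. Their median change of -0.60 was close to the -0.65 of all genes. In this list 1 gene passed (3 with the block), GCN1 (-2.34 ± 0.42, limma adjusted p = 0.0192). EIF2AK4, the kinase that GCN1 activates, was at -0.13 ± 0.43 (adjusted p = 0.937).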

How the data were processed

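The authors deposited raw counts of reads per guide and library, with no normalization; the submitters' processing notes name bcl2fastq, HISAT2 and HTSeq, without versions; how reads were matched to guides or filtered is not stated there. Guide sequences were not in the files used, and 0 columns lacked a sample label. Of 37 member symbols 18 are current in the RefSeq gene table, 15 are an older name of 1 gene and 4 (GARS, MARS, QARS, SARS) are listed under more than 1 gene; they are printed as deposited.

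Guide counts were analysed with edgeR 4.0.16 under R 4.3.3 (TMM, filterByExpr with minimum count 10 and minimum total 15, quasi-likelihood, 1 mean per group over 15 libraries), which kept 77158 guides. Guide ranks were combined per gene by robust rank aggregation (alpha 0.25) against its exact null, the smaller of both directions was doubled, and p was adjusted over 19101 genes with at least 3 tested guides. Gene scores were tested with limma 3.58.1. Alternatives were DESeq2 1.42.0, no filter, scaling to the 1000 guides without a target, scaling by library totals, leaving out each library, and the replicate number as a block. Scripts were tested on simulated data.

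Replicate numbers pair the samples: deviations from group means over 19101 genes correlated at 0.46 to 0.84 in 30 pairs of libraries with the same number and at -0.45 to -0.21 in 60 pairs with different numbers. Deviations cancel out within a group, so the negative values follow from the positive ones and are no separate evidence of pairing. No 2 replicates held the same counts (chi-square per guide 60.6 or more). The naming rule was up to 10 members per class past the threshold with the lowest adjusted p, the highest and lowest member of each class, up to 4 genes per companion list, and other members with their values. Members and lists were chosen with earlier results of these data known. The values of 1 member are not reported here; counts and medians include it.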

Additional observations from a re-analysis of the deposited data

Results flagged for a closer look

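For 3 of 37 members the vemurafenib effect had opposite directions at day 8 and day 14 in each of the 3 replicate numbers (8.11%, against 0.754% of all genes); the differences did not pass the interaction test, with 0 members called. AARS2, the mitochondrial alanine enzyme, was higher in vemurafenib by 0.34, 0.20 and 0.07 at day 8 and lower at day 14 (-1.21, -0.93 and -0.21), a change of the effect of -0.99. FARSB, the partner subunit of FARSA, was higher at day 8 (0.69 and 0.15 in replicates 1 and 2, and by less than 0.01 in replicate 3) and lower at day 14 (-0.72, -0.22 and -1.15), a change of -0.98. KARS, the dual lysine enzyme, was lower at day 8 (-0.43, -0.64 and -0.04) and higher at day 14 (0.94, 1.43 and 1.98), a change of 1.82 (edgeR/RRA adjusted p = 0.901). The opposition by replicate itself was not tested. Under scaling to guides without a target and by library totals the mean differences also had opposite signs at day 8 and day 14 in each of these genes.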

How the results depend on the processing

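With DESeq2 or without the filter on low counts, the counts of members called stayed within 1.5 times of the reported ones in all 18 and 36 counts computed. With the replicate number as a block, the edgeR/RRA count of depleted members was 3 at day 8 and 1 at day 14 in DMSO (0.513% and 0.0838% of all genes). The gene-score count with the block was 18 at day 8 and 2 after day 8 in DMSO (4.68% and 0.613%), and 10 at day 8, 32 at day 14 and 8 after day 8 in vemurafenib (2.84%, 34.2% and 4.87%); the block changed no other count by more than 1.5 times. In place of the edgeR/RRA test, the gene-score test gave 7 and 23 members at days 8 and 14 in DMSO and 4 and 19 in vemurafenib. Scaling to guides without a target gave gene-score counts of 13 at day 8 and 1 after day 8 in DMSO (2.2% and 0.0419% of all genes), and 7 at day 8 and 1 after day 8 in vemurafenib (1.16% and 0.77%). Scaling by library totals gave 13 and 5 in DMSO (2.29% and 3.13%), and 8 at day 8, 36 at day 14 and 25 after day 8 in vemurafenib (1.46%, 82.9% and 57.2%, so the last 2 counts say little of the members); this scaling and the gene-score count of its own were chosen after seeing the data. These scalings moved the all-gene median for growth to day 14 in DMSO from -0.65 to -1.25 and -1.79, and to day 14 in vemurafenib from -0.80 to -1.44 and -2.54.

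Leaving out 1 library at a time, the edgeR/RRA count ranged from 0 to 2 at day 8 in DMSO and from 0 to 1 at day 8 in vemurafenib, and the gene-score count from 1 to 4 at day 8, 17 to 21 at day 14 and 0 to 1 after day 8 in DMSO (1 without day-14 DMSO replicate 2), and from 1 to 3 and 15 to 18 at days 8 and 14 in vemurafenib. The edgeR/RRA count at day 8 in DMSO was 2 without day-0 replicate 1 or 3. The median change of the drug effect between days reversed: for cytosolic members (0.27) it was -0.26 with library totals and -0.15 without day-8 vemurafenib replicate 3, and for mitochondrial members (-0.30) it was 0.21 without day-14 vemurafenib replicate 1; over all libraries left out in turn it ranged from -0.15 to 0.41 and from -0.44 to 0.21. The cause of these shifts was not tested. Losses of guides at 0 reads cannot be measured further at this depth.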
